A study of Homo sapiens with 9 samples.

Results

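Aminoacyl-tRNA synthetases join each amino acid to its transfer RNA, the step that supplies ribosomes with charged tRNA. The 39 genes described here were chosen by name: 20 genes of the cytosolic enzymes, 16 genes of the mitochondrial enzymes, whose symbols end in 2, and the 3 genes AIMP1, AIMP2 and EEF1E1, which encode the non-catalytic proteins that hold a group of cytosolic enzymes in the multisynthetase complex. Each gene was found once among the 58735 genes of the count tables, and all 39 passed edgeR's filter on low counts, which left 16188 genes to be tested.

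The 9 libraries hold RNA of the triple-negative breast cancer line MDA-MB-231 in 3 conditions: cells given DMSO (vehicle), cells given erastin (erastin-R) and cells given RSL3 (RSL3-R), where R marks cells that had survived rising concentrations. Erastin blocks cystine uptake and RSL3 acts on the lipid peroxidase GPX4, and both cause ferroptosis, an iron-dependent death by lipid peroxidation. All conditions come from 1 line, and the survivors are a selected population. In these bulk samples fewer cells expressing a gene and less RNA per cell cannot be told apart. The labels do not say whether the 3 libraries of a condition came from separate cultures, and p values measure the spread between these libraries.

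In the cytosol, a shortage of an amino acid leaves tRNA uncharged, which activates the kinase GCN2 (gene EIF2AK4). GCN2 phosphorylates eIF2α and thereby raises translation of the transcription factor ATF4, and many cytosolic synthetase genes are known ATF4 targets, as are ASNS (asparagine synthetase), TRIB3 and DDIT3. The mitochondrial enzymes are encoded in the nucleus as well, and charge tRNAs for the proteins that mitochondrial DNA encodes. The cytosolic genes were therefore read as 12 genes of a hand-written list of ATF4 targets (AARS, CARS, EPRS, GARS, IARS, LARS, MARS, NARS, SARS, TARS, WARS and YARS) and the other 8 (DARS, FARSA, FARSB, HARS, KARS, QARS, RARS and VARS). GARS and KARS supply enzyme to both compartments, and EPRS carries glutamyl and prolyl activities in 1 protein.

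Promoter sequence was searched because the ATF4 list holds genes commonly listed as targets of this transcription factor. The search used RefSeq windows (GRCh38.p14) of 300 bases, from 250 bases before a transcription start to 50 bases after it, and the letters TGATGNAA on either strand, which are the core of the element that ATF4 binds together with a C/EBP protein. Of all 35116 windows 3.62% held these letters, and 0.866% held the form TGATGCAA. Windows existed for 33 of the 39 genes. The letters were found in 7 of the 10 genes of the ATF4 list with a window, in none of 6 other cytosolic genes, in 1 of 14 mitochondrial genes and in none of the 3 scaffold genes, while over all genes with a window the share was 4.46%. The ATF4 list was drawn up from genes already known as targets, so that this count is a description of the list. EPRS, SARS and WARS had windows without these letters, and no window was at hand for LARS and YARS. The 30 bases around each match are printed on the strand that reads TGATG, with the match in capitals, together with the match in ASNS, a reference gene whose response element is well known.
AARS, chr16:70289675-70289704, plus strand: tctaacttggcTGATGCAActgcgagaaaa
CARS, chr11:3057407-3057436, plus strand: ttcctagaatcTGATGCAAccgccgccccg
GARS, chr7:30594834-30594863, minus strand: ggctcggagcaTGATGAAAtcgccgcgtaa
IARS, chr9:92293692-92293721, plus strand: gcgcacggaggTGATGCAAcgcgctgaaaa
MARS, chr12:57488053-57488082, minus strand: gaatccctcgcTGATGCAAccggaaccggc
NARS, chr18:57621804-57621833, minus strand: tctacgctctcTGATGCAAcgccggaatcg
TARS, chr5:33440956-33440985, minus strand: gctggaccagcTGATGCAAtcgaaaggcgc
YARS2, chr12:32756076-32756105, minus strand: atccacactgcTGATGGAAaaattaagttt
ASNS, chr7:97872458-97872487, minus strand: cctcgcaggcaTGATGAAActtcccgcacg

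Of the 7 cytosolic matches, 6 read TGATGCAA. The match began 4 bases before the first transcribed base in MARS, 2 before it in CARS, 13 before it in IARS and 33 before it in GARS, and 2 and 14 bases after it in TARS and NARS. The matches of AARS and YARS2 lay farther out, at 187 and 197 bases before the start. A match says only that these letters are present, and binding was not measured here.

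Libraries held 15405102 to 17273464 counts, of which the 39 genes took 65055 to 114619, or 0.393 to 0.664%. Levels are given as CPM, reads scaled to the TMM-normalized library size, and between genes as RPKM, which is CPM per kilobase of exon. In vehicle cells the mean RPKM of the cytosolic enzymes ran from 10.1 (CARS) to 47.3 (IARS), with a median of 35.6, and that of the mitochondrial enzymes from 0.712 (SARS2) to 58.0 (IARS2), with a median of 5.99. IARS2 thus stood above every cytosolic enzyme in vehicle cells, and the next mitochondrial gene, YARS2, had 15.0 RPKM. VIM, CD44, AXL and CAV1, which mark this line, were at 234 CPM or more in each condition, while of the luminal markers the means of ESR1 and PGR were 0.547 CPM or less, those of FOXA1 and GATA3 at most 6.2 CPM, and that of ERBB2 62.0 to 93.3 CPM. Of the markers of other cell types PTPRC and ACTA2 had means of 1.37 CPM or less, and PECAM1 was at 9.99 CPM in vehicle, 1.79 in erastin-R and 12.8 in RSL3-R. Replicate 1 of erastin-R stood apart from the other erastin-R libraries (a chi-square per gene of 23.3 and 23.9 against the other 2, and 2.43 to 5.28 for all other pairs within a condition), and values without it are given where they differ. In that library 15 of the 20 cytosolic genes were at the highest of the 3 erastin-R levels.

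The cytosolic enzymes as a group stood higher in both kinds of survivor, with RSL3-R above erastin-R, whereas the sum of the mitochondrial enzymes was lower in RSL3-R and close to vehicle in erastin-R. The summed CPM of the 20 cytosolic genes was 3220 ± 44.6 (SD, n = 3) in vehicle cells. It was 4094 ± 199 in erastin-R and 5923 ± 93.2 in RSL3-R, which was 1.27 and 1.84 times the vehicle mean. That of the 16 mitochondrial genes was 681 ± 2.86, 679 ± 24.5 and 550 ± 8.83. Transcripts of mitochondrial DNA itself took 7.97 to 8.93% of the counts in vehicle, 5.55 to 7.95% in erastin-R and 9.52 to 10.2% in RSL3-R libraries, and their part in these sums was not tested. The ratio of the 2 sums was 4.68 to 4.79 in the vehicle libraries, 5.64 to 6.57 in the erastin-R libraries and 10.7 to 10.8 in the RSL3-R libraries, so that the 3 conditions did not overlap. Within the cytosolic group the sum of the 12 genes of the ATF4 list went from 2156 ± 42.1 to 3008 ± 198 and 5007 ± 88.3, and the sum of the other 8 from 1064 ± 6.24 to 1087 ± 6.49 and 917 ± 9.58. The 3 scaffold genes summed to 97.5 ± 2.38, 100.2 ± 10.4 and 110.4 ± 6.57 CPM.

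**Figure D1:**
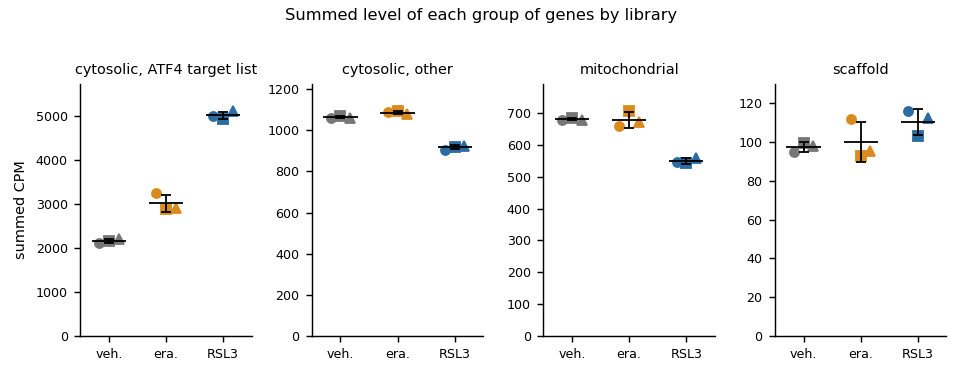
Summed CPM (vertical axes, from 0) of 4 groups of genes in each library of vehicle (veh.), erastin-R (era.) and RSL3-R (RSL3) cells; circles, squares and triangles are replicates 1, 2 and 3, lines the mean and bars the SD. The ATF4 list steps from a mean of 2156 to 3008 and 5007 CPM, while the mitochondrial sum is 681, 679 and 550 CPM.

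Each gene was then tested in 1 edgeR quasi-likelihood model of all 9 libraries, with Benjamini-Hochberg adjustment over the 16188 genes. In erastin-R against vehicle, 12 of the 20 cytosolic genes were higher and 3 lower (adjusted p under 0.05), where 27.1% of all genes were higher and 26.8% lower. Without erastin-R replicate 1, 12 were higher and 6 lower (DARS, FARSA, FARSB, HARS, RARS and TARS). None of the 20 reached a 2-fold change, which 6.7% of all genes did upward and 6.66% downward. Their median log2 fold change was 0.32 and that of all genes -0.0042. Of the 16 mitochondrial genes 3 were higher and 3 lower, with a median of 0.0025. In RSL3-R against vehicle, 12 cytosolic genes were higher and 4 lower (all genes, 23.8% and 24.9%), and 8 of them passed a 2-fold increase (all genes, 6.02%), with a median of 0.80. Here 1 mitochondrial gene was higher and 10 were lower, with a median of -0.28. The 2 comparisons share the vehicle libraries and are not independent of each other. Decreases of 2-fold or more, which 4.08% of all genes showed in RSL3-R, did not occur among the members.

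The libraries themselves gave similar counts. All 3 erastin-R libraries lay above all vehicle libraries for 12 cytosolic and 4 mitochondrial genes (28.7% of all genes) and below them for 3 and 5 (29.1%). All RSL3-R libraries lay above vehicle for 12 cytosolic genes and 1 mitochondrial gene (30.4%) and below it for 6 and 10 (31.4%). Genes higher in both survivors were 11 cytosolic genes and NARS2 (14.1% of all genes), and those lower in both were FARSA, HARS, AARS2, FARS2, LARS2 and AIMP2 (14.5%).

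The 12 genes of the ATF4 list made up all cytosolic increases in RSL3-R and all but VARS in erastin-R. In RSL3-R all 12 rose, with a median log2 fold change of 1.31 (a 2.48-fold increase), and in erastin-R 11 rose, TARS being the exception, with a median of 0.57 (1.49-fold). In 11 of the 12 every erastin-R library lay above every vehicle library and every RSL3-R library above every erastin-R library, a stepwise order that 3.05% of all tested genes showed. TARS lacked this order. The list was chosen with earlier results of these data known and is not independent evidence of its direction.

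**Figure D2:**
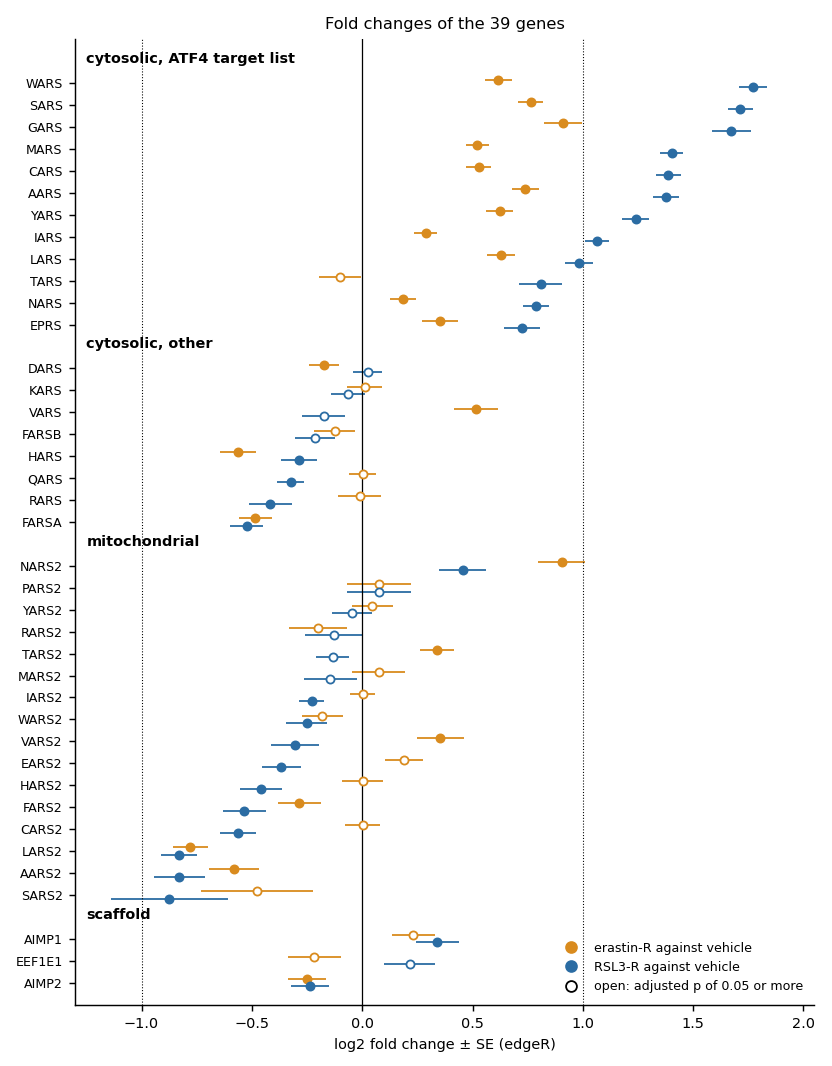
Log2 fold change with its standard error (horizontal axis) of each of the 39 genes in erastin-R (orange) and RSL3-R (blue) against vehicle, sorted within 4 groups by the RSL3-R value; open points have an adjusted p of 0.05 or more and dotted lines mark a 2-fold change. The RSL3-R points of the ATF4 list run from 0.72 (EPRS) to 1.77 (WARS), and those of the mitochondrial genes from -0.87 (SARS2) to 0.45 (NARS2).

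WARS, which charges tryptophan and is also known as an interferon-inducible gene, had the largest increase in RSL3-R. Its libraries were at 104, 112 and 109 CPM in vehicle, 178, 158 and 163 in erastin-R and 361, 362 and 387 in RSL3-R. The conditions did not overlap. The log2 fold change was 0.62 ± 0.06 (SE) in erastin-R (edgeR adjusted p = 2.20e-06) and 1.77 ± 0.06 in RSL3-R (adjusted p = 1.30e-10). SARS, the seryl enzyme, was at 151, 158 and 158 CPM in vehicle, 276, 258 and 258 in erastin-R and 503, 502 and 525 in RSL3-R. Its increases were 0.76 ± 0.06 (adjusted p = 8.71e-08) and 1.71 ± 0.06 (adjusted p = 7.85e-11). GARS, the glycyl enzyme, had a log2 fold change in erastin-R that, with that of NARS2, was the largest among the members. It was at 174, 176 and 190 CPM in vehicle, 397, 309 and 310 in erastin-R and 577, 560 and 586 in RSL3-R, with log2 fold changes of 0.91 ± 0.09 (adjusted p = 1.06e-06) and 1.67 ± 0.09 (adjusted p = 3.32e-09). The high erastin-R value of GARS is that of replicate 1, and without this library the increase was 0.78, below that of NARS2 (0.96 without it). Per length, GARS and SARS were the highest cytosolic genes in RSL3-R cells, at 138 and 133 RPKM, whereas IARS and TARS were in vehicle cells.

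MARS, CARS and AARS, which charge methionine, cysteine and alanine, had increases in RSL3-R that lay within 1 SE of each other. MARS was at 163, 160 and 155 CPM in vehicle, 226, 229 and 231 in erastin-R and 413, 417 and 435 in RSL3-R. Its log2 fold changes were 0.52 ± 0.05 (adjusted p = 2.07e-06) and 1.40 ± 0.05 (adjusted p = 1.99e-10). CARS, whose loss is known to make cells resist erastin, was at 102, 102 and 101 CPM in vehicle, 153, 139.5 and 148 in erastin-R and 262, 262 and 274 in RSL3-R, and rose by 0.53 ± 0.06 (adjusted p = 3.51e-06) and 1.39 ± 0.06 (adjusted p = 3.77e-10). AARS was at 144, 145 and 131 CPM, then 237, 222 and 241, then 360, 370 and 360, and its changes were 0.74 ± 0.06 (adjusted p = 2.58e-07) and 1.38 ± 0.06 (adjusted p = 6.37e-10). None of the 3 genes had overlapping conditions.

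YARS (tyrosine) and IARS (isoleucine) completed the 8 genes past 2-fold in RSL3-R, with log2 fold changes of 1.24 ± 0.06 and 1.07 ± 0.05 there and of 0.62 and 0.29 in erastin-R. LARS (leucine), which also serves as a leucine sensor for mTORC1, was just under that threshold at 0.98 ± 0.06. NARS (asparagine) and EPRS rose by 0.79 and 0.72 in RSL3-R. In erastin-R NARS rose by 0.19 ± 0.06 (edgeR adjusted p = 0.0164), a call lost in 4 of 16 alternatives, among them those without vehicle replicate 1 (0.17, adjusted p = 0.0616) or replicate 2 (0.18, adjusted p = 0.0605). TARS (threonine) was at 246, 264 and 266 CPM in vehicle, 291, 221 and 211 in erastin-R and 443, 451 and 466 in RSL3-R. The erastin-R libraries lay on both sides of the vehicle range, and the log2 fold change was -0.10 ± 0.10 (adjusted p = 0.391). Without erastin-R replicate 1 it was -0.26 (adjusted p = 2.28e-05), which counted as lower. In RSL3-R TARS rose by 0.81 ± 0.10 (adjusted p = 1.03e-05).

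**Figure D3:**
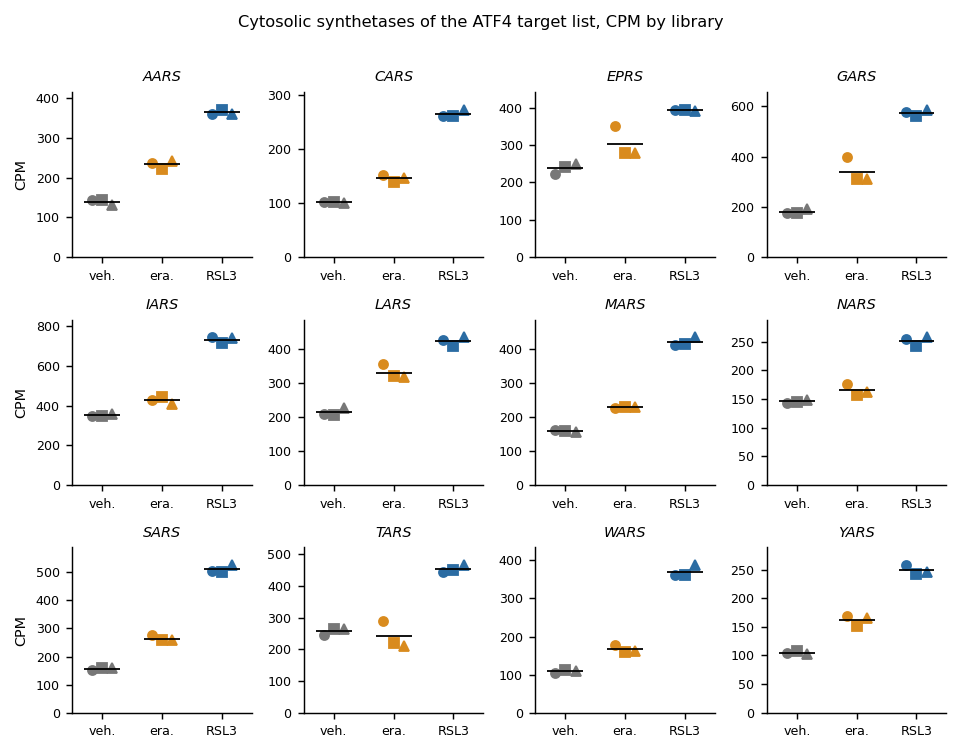
CPM (vertical axes, from 0) of the 12 cytosolic synthetases of the ATF4 list in each library of vehicle, erastin-R and RSL3-R cells; circles, squares and triangles are replicates 1, 2 and 3 and lines are means. In 11 panels the 3 conditions do not overlap, and in the TARS panel the erastin-R libraries (211 to 291 CPM) span the vehicle libraries (246 to 266 CPM).

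None of the other 8 cytosolic genes rose in RSL3-R, where their median log2 fold change was -0.25, and 1 rose in erastin-R, where it was -0.07. FARSA, the catalytic subunit of the phenylalanyl enzyme, fell in both, from 94.8, 99.6 and 88.3 CPM in vehicle to 71.2, 64.3 and 66.4 in erastin-R and 60.8, 70.2 and 65.7 in RSL3-R. Its log2 fold changes were -0.48 ± 0.07 (adjusted p = 8.58e-05) and -0.52 ± 0.07 (adjusted p = 5.19e-05). FARSB, which encodes the partner subunit, had -0.13 and -0.21 (adjusted p = 0.268 and 0.0704), and counted as lower without erastin-R replicate 1 (-0.23 in erastin-R, adjusted p = 0.00738, and -0.22 in RSL3-R, adjusted p = 0.00579). QARS (glutamine) and RARS (arginine) fell in RSL3-R by 0.32 ± 0.06 and 0.42 ± 0.10 on the log2 scale, and both were also lower there than in erastin-R. RARS was at 140 CPM in erastin-R replicate 1 and at 103 in each of the other 2, against 114 to 119 in vehicle, and without replicate 1 it counted as lower in erastin-R (-0.17, adjusted p = 0.00604). KARS (lysine) passed no test.

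VARS, the valyl enzyme, did not follow the order of the ATF4 list. It was at 241, 229 and 229 CPM in vehicle, 266, 373 and 360 in erastin-R and 201, 203 and 215 in RSL3-R. The log2 fold change of VARS was 0.52 ± 0.10 in erastin-R (edgeR adjusted p = 0.000524) and -0.17 ± 0.10 in RSL3-R (adjusted p = 0.16), and RSL3-R was lower than erastin-R by 0.69 ± 0.10 (adjusted p = 6.28e-05). Its erastin-R increase was 0.65 without replicate 1, the library where it was lowest. Without that library VARS also counted as lower in RSL3-R (adjusted p = 0.000634). DARS (aspartate) was 0.17 lower in erastin-R with an adjusted p of 0.0434, and lost this call in 12 of 16 alternatives, among them each library left out except erastin-R replicate 1. The adjusted p without a library was at most 0.196, reached without erastin-R replicate 3.

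A set of 8 cytosolic enzymes sits in the multisynthetase complex, and their genes did not move together. EPRS, IARS, LARS and MARS rose in both survivors, QARS and RARS fell in RSL3-R, and DARS and KARS passed no test there. Of the scaffold genes, AIMP1 was at 50.9, 55.8 and 55.6 CPM in vehicle, 73.8, 57.6 and 59.1 in erastin-R and 73.4, 61.8 and 70.4 in RSL3-R, and rose by 0.34 ± 0.10 in RSL3-R (adjusted p = 0.01). In erastin-R its change of 0.23 did not pass (adjusted p = 0.0592), though it did without erastin-R replicate 2 (0.0288) or 3 (0.042). Without erastin-R replicate 1, where AIMP1 was highest, the change was 0.11 (edgeR adjusted p = 0.202). AIMP1 then counted as higher in RSL3-R than in erastin-R (0.23, adjusted p = 0.00698). AIMP2 was lower by 0.25 in erastin-R and by 0.24 in RSL3-R (adjusted p = 0.0247 and 0.0373). The first call was lost in 4 of 16 alternatives, among them without vehicle replicate 1 or 3 or erastin-R replicate 2 (adjusted p up to 0.0968). The second was lost in 11, among them without any 1 of the vehicle or RSL3-R libraries (adjusted p up to 0.237, without RSL3-R replicate 1). Of the exon length of AIMP2, 28.9% is shared with EIF2AK1 on the other strand. EEF1E1 passed neither comparison with vehicle (-0.22 and 0.22), counted as lower in erastin-R without erastin-R replicate 1 (-0.32, adjusted p = 0.0237) and was 0.43 higher in RSL3-R than in erastin-R. By catalytic class, 7 of the 10 class I and 5 of the 10 class II cytosolic genes rose in RSL3-R (23.8% of all genes). In each class 2 fell (24.9%), and the medians were 1.02 and 0.41. The genes that rose are the 12 of the ATF4 list, so that these counts restate membership of that list. EPRS, which holds an enzyme of each class, was counted as class I. In erastin-R 8 class I genes rose and 0 fell, while 4 class II genes rose and 3 fell (all genes, 27.1% and 26.8%).

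Among the mitochondrial enzymes LARS2 and AARS2, for leucine and alanine, fell in both survivors. LARS2 was at 58.8, 62.9 and 63.6 CPM in vehicle, 39.5, 33.5 and 34.95 in erastin-R and 34.5, 32.8 and 37.0 in RSL3-R, with log2 fold changes of -0.78 ± 0.08 (edgeR adjusted p = 2.55e-06) and -0.83 ± 0.08 (adjusted p = 1.62e-06). AARS2 was at 29.03, 26.8 and 25.4 CPM, then 16.3, 19.1 and 18.97, then 12.8, 17.2 and 15.6, with changes of -0.58 ± 0.11 (adjusted p = 0.000693) and -0.83 ± 0.12 (adjusted p = 4.63e-05). For both genes all survivor libraries lay below all vehicle libraries. The cytosolic counterparts LARS and AARS rose in the same libraries. FARS2 (phenylalanine) was the only member that stepped down over the 3 conditions without overlap, from 20.2 to 20.8 CPM in vehicle to 15.4 to 18.4 in erastin-R and 13.5 to 14.9 in RSL3-R, an order that 4.73% of all tested genes showed. Its RSL3-R change was -0.53 ± 0.10 (adjusted p = 0.0005). Its erastin-R change of -0.29 (adjusted p = 0.0231) did not pass without vehicle replicate 2 (0.0541), vehicle replicate 3 (0.0597) or erastin-R replicate 3 (0.0934).

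CARS2, HARS2, EARS2 and IARS2 fell in RSL3-R and passed no test in erastin-R, where EARS2 counted as higher without erastin-R replicate 3 (0.25, adjusted p = 0.0425). CARS2 was at 55.5, 57.2 and 49.3 CPM in vehicle, 50.2, 59.3 and 52.7 in erastin-R and 36.6, 36.5 and 36.6 in RSL3-R, and fell by 0.56 ± 0.08 on the log2 scale (adjusted p = 6.73e-05). HARS2 fell by 0.46, EARS2 by 0.37 and IARS2 by 0.23. All 4 were also lower in RSL3-R than in erastin-R, IARS2 not under upper-quartile factors (adjusted p = 0.0707). SARS2 had the lowest fold change of all members in RSL3-R (-0.87 ± 0.26, adjusted p = 0.0142), but on 16 to 41 counts per library. It did not pass without vehicle replicate 2 (0.0524) or RSL3-R replicate 2 (0.0578). Of its exon length 57.0% overlaps other genes, 46.2% on its own strand. WARS2 was 0.25 lower in RSL3-R (adjusted p = 0.0386), a call lost in 10 of 16 alternatives, including without vehicle replicates 2 and 3 and without any 1 of the RSL3-R libraries (adjusted p up to 0.147, without RSL3-R replicate 2). MARS2, PARS2, RARS2 and YARS2 passed no test against vehicle. RARS2 counted as lower in erastin-R without erastin-R replicate 1 (-0.39, adjusted p = 0.00181).

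NARS2, for asparagine, was the mitochondrial gene that rose in both survivors. It was at 13.7, 12.7 and 12.5 CPM in vehicle, 22.2, 26.3 and 24.3 in erastin-R and 19.1, 15.8 and 18.5 in RSL3-R. Its increases were 0.90 ± 0.11 (edgeR adjusted p = 8.33e-06) and 0.45 ± 0.11 (adjusted p = 0.00324), so that it was lower in RSL3-R than in erastin-R (-0.45 ± 0.10, adjusted p = 0.00266), the opposite order to NARS. TARS2 rose in erastin-R (0.34 ± 0.08, adjusted p = 0.00169) and was lower in RSL3-R than in erastin-R by 0.47 (adjusted p = 0.000162), again the opposite order to TARS. VARS2 followed VARS, with 39.9, 43.1 and 42.5 CPM in vehicle, 43.7, 58.9 and 58.0 in erastin-R and 31.1, 36.8 and 33.8 in RSL3-R. It counted as higher in erastin-R (0.35 ± 0.11, adjusted p = 0.0115) and lower in RSL3-R (-0.30 ± 0.11, adjusted p = 0.0317). The first call was lost without vehicle replicate 1 or erastin-R replicates 2 or 3 (adjusted p 0.0503 to 0.0556) and the second in 7 of 16 alternatives, among them without vehicle replicate 2 or 3 and RSL3-R replicate 1 or 3 (adjusted p 0.0767 to 0.197). Of the VARS2 exon length 22.0% is shared with GTF2H4 on the same strand.

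**Figure D4:**
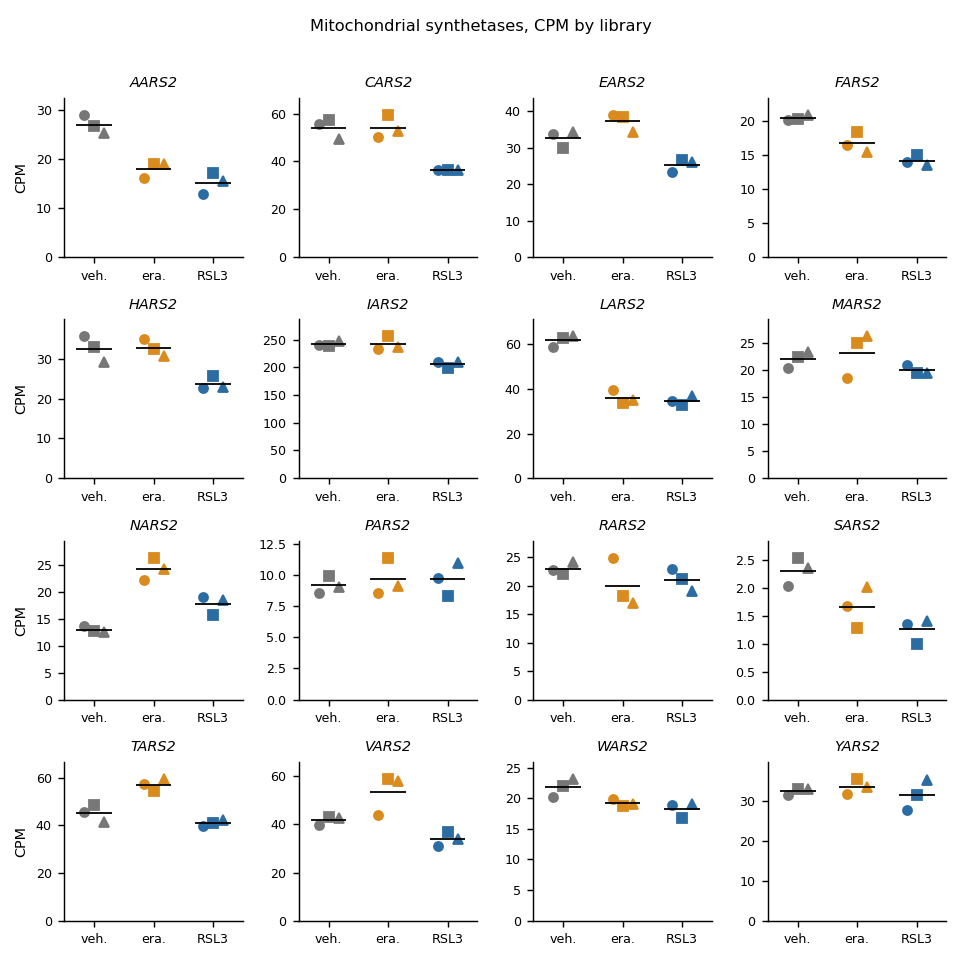
CPM (vertical axes, from 0) of the 16 mitochondrial synthetases in each library of vehicle, erastin-R and RSL3-R cells; circles, squares and triangles are replicates 1, 2 and 3 and lines are means. LARS2 and AARS2 are lower in both survivors, NARS2 is higher in both, and VARS2 is highest in erastin-R replicates 2 and 3 (58.9 and 58.0 CPM).

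For 13 amino acids a cytosolic and a mitochondrial enzyme could be set side by side. The cytosolic gene had the higher RPKM in vehicle cells in 11 of the 13 pairs, IARS and YARS being the exceptions at 0.816 and 0.851 times the level of IARS2 and YARS2. The log2 fold change of the cytosolic gene exceeded that of its counterpart in 10 pairs in erastin-R and in 12 pairs in RSL3-R, RARS being the exception there. These counts go by sign only, and the differences within pairs were not tested. The smallest were 0.16 (VARS) and 0.19 (RARS) in erastin-R, and 0.13 (VARS) and 0.17 (HARS) in RSL3-R, where neither VARS nor HARS rose. The median ratio of RPKM over the pairs went from 3.11 in vehicle to 4.29 in erastin-R and 8.45 in RSL3-R. The ratio of AARS to AARS2 went from 4.94 to 12.3 and 22.8, that of WARS to WARS2 from 3.02 to 5.25 and 12.3, and that of LARS to LARS2 from 2.91 to 7.70 and 10.2. For the histidine pair, HARS and HARS2 lie head to head on chromosome 5 (140673904-140691862 on the minus and 140691426-140699318 on the plus strand, GRCh38) and share 437 bases of exon. HARS fell by 0.56 ± 0.08 in erastin-R and 0.28 ± 0.08 in RSL3-R (adjusted p = 6.01e-05 and 0.0103), and the second call was lost without RSL3-R replicate 1 (0.0677) or 3 (0.0751).

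**Figure D5:**
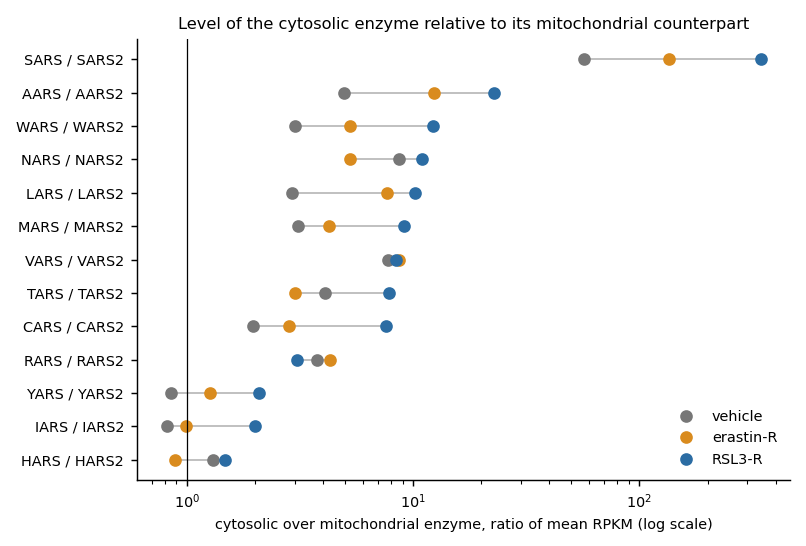
Ratio of the mean RPKM of the cytosolic enzyme to that of its mitochondrial counterpart (horizontal axis, log scale) for 13 amino acids in vehicle (grey), erastin-R (orange) and RSL3-R (blue) cells. The median ratio is 3.11, 4.29 and 8.45, and the SARS2 denominator rests on 16 to 41 counts per library.

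Tested directly, RSL3-R against erastin-R gave 14 cytosolic genes higher and 3 lower (QARS, RARS and VARS), where 22.3% of all genes were higher and 26.9% lower, and none of the mitochondrial genes higher and 7 lower. RSL3-R libraries all lay above erastin-R for 14 cytosolic genes (25.6% of all genes) and below it for 3 cytosolic and 8 mitochondrial genes (29.5%). All 12 genes of the ATF4 list were higher in RSL3-R, by a median of 0.77. WARS was the only member past 2-fold, at 1.15 ± 0.06 (adjusted p = 1.03e-08), where 6.86% of all genes were, and no member was 2-fold lower (3.48% of all genes). Without erastin-R replicate 1 there were 2 such genes, TARS being the second (1.07), and the medians of the cytosolic and mitochondrial genes were 0.57 and -0.34 in place of 0.49 and -0.25. Without that library 1 mitochondrial gene, RARS2, counted as higher (0.26, adjusted p = 0.0335) and 10 as lower. HARS and DARS were higher by 0.28 and 0.20 (adjusted p = 0.0128 and 0.0262), and both calls were lost without erastin-R replicates 2 or 3 or RSL3-R replicate 2 (adjusted p 0.0545 to 0.134). The split of all genes past 2-fold, 1111 higher and 563 lower, was 822 and 644 under quantile normalization and 1321 and 406 under upper-quartile factors.

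The list named amino acid response holds 11 genes written by hand (EIF2AK4, GCN1, EIF2AK3, ATF4, DDIT3, ATF3, TRIB3, ASNS, CEBPB, PPP1R15A and DDIT4). What set off their changes was not tested. All 11 rose in erastin-R (27.1% of all genes) and 8 in RSL3-R (23.8%), and 5 rose by 2-fold or more in each (6.7% and 6.02%). Between the survivors the list did not move one way. In RSL3-R against erastin-R 4 of its genes were higher and 4 lower (all genes, 22.3% and 26.9%), with a median of 0.009. EIF2AK4, the gene of GCN2, rose by 0.30 and 0.43, while GCN1, its activator on ribosomes, rose by 0.38 in erastin-R and fell by 0.27 in RSL3-R. ATF4 itself rose by 0.30 and 0.68, from 299 to 368 and 479 CPM. ASNS rose by 3.81 and 3.80 and TRIB3 by 1.76 and 2.84. DDIT3, which encodes the stress factor CHOP, rose by 1.69 and 2.15. DDIT3 and MARS lie on opposite strands of chromosome 12 and share 355 bases of exon, 5.05% of the MARS and 27.2% of the DDIT3 exon length. Whether the counting used strand is not given in the sources used here. DDIT3 held 105 to 580 counts per library and MARS 2520 to 7447.

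XPOT, the exporter of tRNA from the nucleus, rose like the cytosolic enzymes, from 298 to 500 and 781 CPM (0.75 and 1.39, adjusted p = 9.97e-08 and 2.73e-10). It was 1 of the 5 genes of the 23-gene tRNA maturation list that rose in erastin-R (27.1% of all genes), where 10 fell (26.8%), and 1 of the 2 that rose in RSL3-R (23.8%), where 12 fell (24.9%). The list medians were -0.24 and -0.32. The other gene that rose in both was TSEN15, of the tRNA splicing endonuclease (0.25 and 0.82). The genes that fell in both included POP1, POP5 and POP7 of the nuclear RNase P, which trims the leader of tRNA precursors (-1.78, -1.09 and -0.56 in erastin-R, -0.94, -1.33 and -1.16 in RSL3-R), and TRMT10C and HSD17B10, subunits of the mitochondrial RNase P. Not all subunits fell: RPP14, RPP21, RPP38 and RPP40 of the nuclear enzyme and KIAA0391 of the mitochondrial one passed neither comparison with vehicle. Of 12 tested genes for other steps of charging, SEPSECS, which completes selenocysteine on its tRNA, rose by 1.20 and 1.05, and TARSL2, a second cytosolic threonyl enzyme, by 0.85 and 1.11. Among elongation factors EEF2 rose in both (0.39 and 0.31), while EEF1B2, EEF1D and the mitochondrial factors GFM1 and TSFM fell in both.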

How the data were processed

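RNA of 9 MDA-MB-231 libraries was sequenced after poly(A) selection, and groups and replicate numbers were taken from the labels. The authors deposited raw read counts per gene and FPKM values computed from these counts; the submitters' processing notes name HISAT2 2.0.5 and featureCounts 1.5.0-p3, and the paper states that uniquely mapped exonic reads were used. All 58735 gene identifiers matched GENCODE release 29 with the same start and end. The deposited FPKM served only to repeat the comparison of levels between genes.

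Counts were filtered (filterByExpr), TMM-normalized and tested in R 4.3.3 with edgeR 4.0.16 (quasi-likelihood, 9 libraries in 1 model, no block) and Benjamini-Hochberg adjustment over 16188 genes. A call needs an adjusted p under 0.05; the further threshold of an absolute log2 fold change of 1 follows the study's legend. The study's text also names Cufflinks, which was not run. The coefficient of variation was 8.56%. A floor of 3 counts equals 0.174 to 0.195 CPM and, like all count-based precision, covers counting error only.

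Alternatives were DESeq2 1.42.0, upper-quartile factors, total counts only, quantile normalization with limma 3.58.1, no filter, only the 2 conditions compared, the replicate block and each of the 9 libraries left out, 16 in all for each gene. edgeR was tested on simulated data. Same-numbered libraries did not deviate together (mean correlation -0.0049 over 9 pairs), so the numbers were not taken as pairs. Members and lists were chosen with earlier results of these data known. All 39 members are named in the text; other genes come from hand-written lists. Promoter windows are RefSeq's, matched by symbol and chromosome. Plots were made in Python 3.11.15 with matplotlib 3.10.9.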

Additional observations from a re-analysis of the deposited data

Results flagged for a closer look

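Of the 25 members called when RSL3-R and erastin-R cells were compared directly with edgeR, 2 met a narrower rule. The rule asked for a difference of at least 2-fold, or for calls against vehicle in opposite directions. WARS rose against vehicle in both survivors and stood 1.15 higher on the log2 scale in RSL3-R than in erastin-R (3 of 3 libraries above all erastin-R libraries). VARS2 counted as higher than vehicle in erastin-R and as lower in RSL3-R, with a difference of -0.66 between them (3 of 3 RSL3-R libraries below all erastin-R libraries). VARS2 met the rule only through these 2 calls against vehicle, which were lost in 3 and in 7 of 16 alternatives. Leaving out erastin-R replicate 1 gave 1.20 for WARS and -0.79 for VARS2. Groups of 3 libraries were not tested for single outlying libraries.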

How the results depend on the processing

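Of the 22, 29 and 25 member calls in erastin-R against vehicle, RSL3-R against vehicle and RSL3-R against erastin-R, 17, 24 and 22 held in each of the 16 alternatives run. Upper-quartile factors moved the cytosolic median to 0.27 in erastin-R, 0.85 in RSL3-R and 0.59 in RSL3-R against erastin-R, the mitochondrial median of the last to -0.15, and its cytosolic genes past 2-fold to 3; they also moved the median of all genes there from -0.02 to 0.08. With single libraries left out, the cytosolic genes lower in erastin-R numbered 2 to 6 and their group median was 0.26 to 0.36. In RSL3-R against erastin-R the cytosolic genes past 2-fold numbered 1 to 2, mitochondrial genes higher 0 to 1, and the medians ran from 0.45 to 0.57 and from -0.34 to -0.20. No value reversed a called direction in these alternatives. With the replicate block, 114 of the 117 gene results kept their call, and the calls lost were those of DARS in erastin-R (adjusted p = 0.0645) and of WARS2 and AIMP2 in RSL3-R (0.0585 and 0.0529). The counts of cytosolic and mitochondrial calls stayed within 1.5 times under the block, and the scaffold genes lower in RSL3-R went from 1 to 0. SARS2, at 16 to 41 counts, is the member where low counts most limit precision. It shares 46.2% of its exon length on the same strand with AC011455.2, which had 0 counts. The part of this overlap in the low count of SARS2 was not tested.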
